A study of Mus musculus with 4 samples.

Results

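DNA repair and damage response genes were examined in mouse T cells grown under Th9 conditions without and with TL1A, a cytokine of the tumour necrosis factor family. The Th9 type of helper T cell is named for the interleukin-9 it secretes. The 34 genes were taken by symbol from a list of break signalling, end joining, homologous recombination, Fanconi, mismatch and base excision repair, and p53 genes, and all 34 were found by Entrez identifier among the 23480 genes measured. Bulk RNA was sequenced in 4 libraries, 2 from the Th9 condition and 2 from the Th9 condition with TL1A, which the sample labels write as TLA1 and the series title as TL1A. Both groups share the Th9 condition, while strain, age, culture time, cytokine doses and sorting of the mouse cells were not stated in the sources used here. No label ties a replicate to its own animal or culture, so p-values here measure only library-to-library spread, part or all of which may be technical.

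The reads counted in genes ranged from 2979482 to 4041633 per library, and all 34 genes passed the filter on low counts. All 9 T cell markers were detected, with a summed level of 2889 to 3317 CPM (reads of a gene scaled to the library's reads in genes, the authors' unit) without and 3649 to 3821 CPM with TL1A. The 6 B cell markers summed to 10.4 to 12.9 CPM without and 28.9 to 29.2 CPM with TL1A, with Ms4a1, Pax5 and Blk at 0 reads in every library. The 7 macrophage and monocyte markers summed to 1.89 to 3.22 and 4.54 to 7.72 CPM, with Lyz2, Csf1r, Cd14 and Fcgr1 at 0 reads, and the 5 dendritic cell markers to 3.16 to 5.69 and 8.76 to 15.4 CPM, with Siglech at 0 reads. Summed CD8 markers overlapped between the groups (7.92 to 13.3 and 9.73 to 10.1 CPM), as did those of NK cells, with 3 of 4 at 0 reads, and of mast cells and basophils, with 5 of 6 at 0 reads. The part of the marker differences in the results below was not tested. In bulk RNA, fewer cells of a type and less RNA per cell cannot be told apart.

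DNA double-strand breaks are sensed by the kinase ATM through the MRE11-RAD50-NBS1 complex, and single-stranded DNA at stalled replication forks by the kinase ATR with TOPBP1; the checkpoint kinases CHK2 and CHK1 act below them. Broken ends are either joined directly by the Ku and DNA-PK machinery, which 53BP1 and RIF1 favour by limiting resection of the ends, or copied from a sister chromatid by homologous recombination with BRCA1, PALB2 and BRCA2, mainly in S and G2 phase. The Fanconi pathway handles crosslinked DNA, mismatch and base excision repair correct single bases, and p53 drives genes such as Cdkn1a and Mdm2. Dividing T cells carry out much replication-linked repair, and many of these genes are known to be transcribed more in cycling cells.

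With TL1A, 25 of the 34 repair genes had log2 fold changes below 0 (73.5%, against 51.1% of all tested genes), and the only one to pass the test was Rif1, which fell 2.75-fold. Limma, with p-values adjusted by Benjamini-Hochberg over 10324 tested genes and a threshold of 0.05, called 1 of the 34 lower and 0 higher. Of all tested genes it called 1.14%, with 0.252% lower and 0.891% higher. At an unadjusted p under 0.05, 12 of the 34 were lower (35.3%) and 1 was higher, against 8.14% lower and 8.54% higher of all tested genes. EdgeR's quasi-likelihood test on recovered reads called 2 of the 34, Rif1 and Xrcc5, both lower, where it called 1.56% of all tested genes, 0.426% lower and 1.13% higher. DESeq2 on those reads called 4 of the 34 (Rif1, Xrcc5 and Topbp1 lower and Cdkn1a higher), where it called 2.64% of all tested genes, 0.881% lower and 1.76% higher.

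The deposited values of both libraries with TL1A lay below both Th9 libraries in 19 of the 34 genes (55.9%) and above both in 1, Cdkn1a, against 29% below and 19.1% above of all tested genes (48.1% without overlap). After TMM scaling, which corrects for composition between libraries, these counts were 17 below and 2 above (Cdkn1a and Xrcc1), against 23.7% and 23.7%. The median log2 fold change of the 34 genes was -0.51, and that of all tested genes was -0.013. By role the medians were -0.92 for end joining (7 genes), -0.86 for homologous recombination (7 genes), -0.51 for break signalling (10 genes), -0.38 for the Fanconi genes (3), 0.043 for mismatch and base excision repair (4) and 0.17 for the p53 genes (3). Differences between these medians were not tested. Fold changes are on the scale log2(CPM + 1), which understates changes of genes with few reads.

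**Figure D1:**
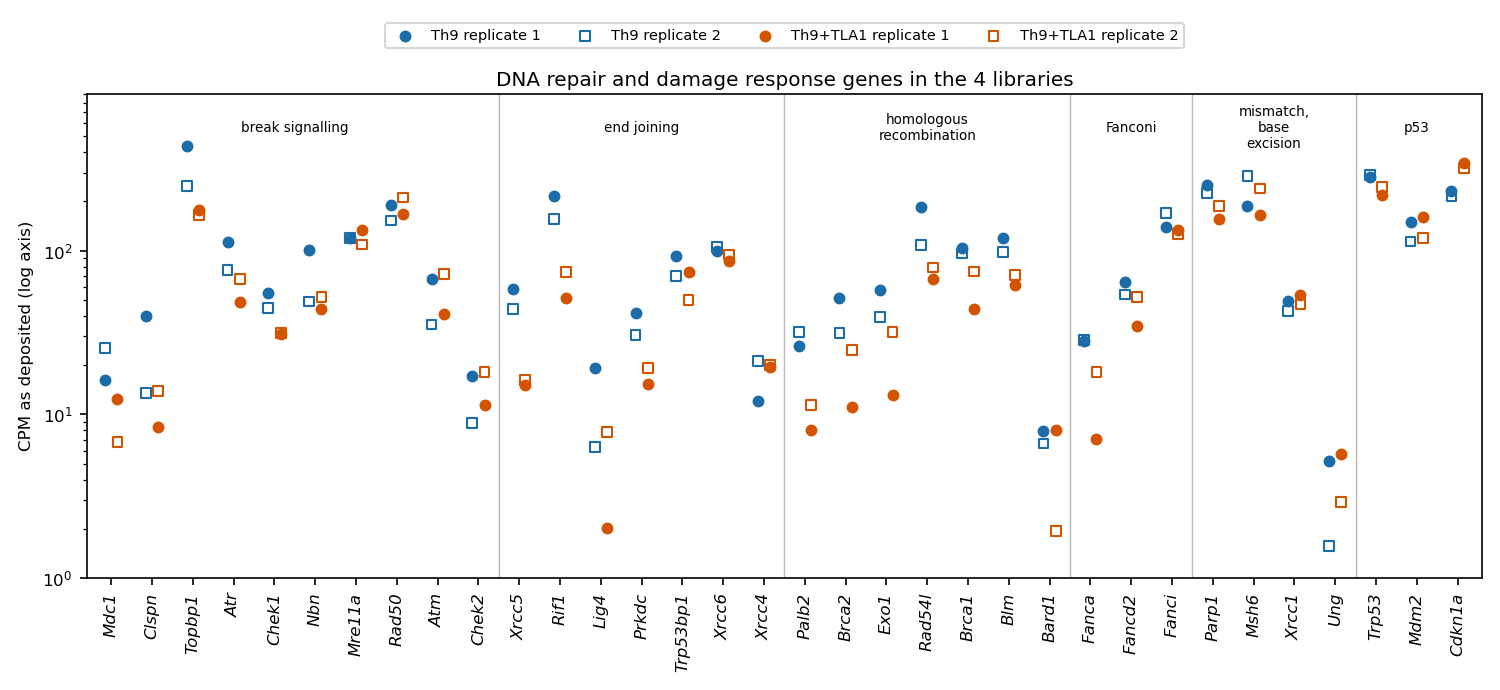
Deposited CPM of each gene (log axis) in the 2 Th9 libraries (blue) and the 2 libraries with TL1A (orange), circles for replicate 1 and squares for replicate 2, grouped by role and ordered by fold change. The orange symbols lie below both blue ones in 19 of the 34 genes, among them 6 of the 7 homologous recombination genes, and above both in Cdkn1a.

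**Figure D2:**
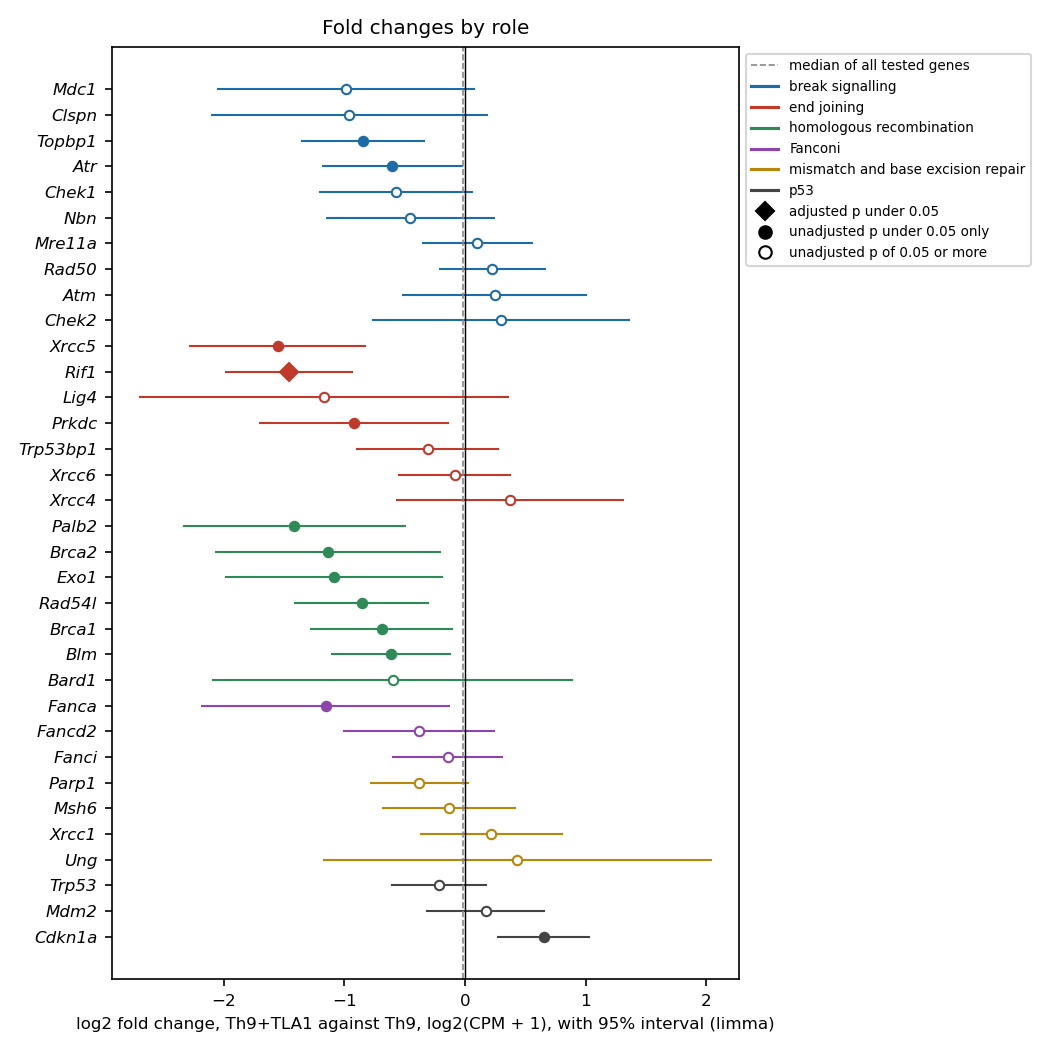
Log2 fold change of each gene with TL1A against Th9 (point) and its 95% interval from limma (line), coloured by role; the diamond marks an adjusted p under 0.05 and filled circles an unadjusted p under 0.05 only. Rif1 is the only diamond, all 7 homologous recombination genes lie below 0, and Cdkn1a is the only filled point above 0.

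Promoter letters were read from RefSeq windows (GRCm38.p6, the assembly of mm10) running from 250 bases before to 50 bases after a transcript start, which were matched for 28 of the 34 genes; Rif1, Exo1, Fancd2, Nbn, Prkdc and Rad50 were not matched. E2F factors are known to drive genes of S phase, and one form of their site, TTTCCCGC, searched on both strands, was present in the windows of 6 of the 28 genes (21.4%), against 2.58% of 8339 tested genes with a window and 1.24% of all 27025 genes in the table. The 4 matches whose windows touch no GENCODE M21 transcript are shown 5′ to 3′ on the strand of the gene, with the match in capitals (GCGGGAAA is the same site read on the other strand), because they show the shared letters in genes of different roles.
Brca2: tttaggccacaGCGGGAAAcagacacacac
Mdc1: tcttcagcctgTTTCCCGCcggtagccgca
Bard1: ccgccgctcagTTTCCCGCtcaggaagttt
Chek2: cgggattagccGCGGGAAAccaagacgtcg
These windows are at chr5:150522442-150522471 (plus strand), chr17:35841471-35841500 (plus), chr1:71103163-71103192 (minus) and chr5:110839820-110839849 (plus). In RefSeq, whose genes can start further upstream, the Brca2 and Chek2 windows lie wholly within the gene's own locus and the Mdc1 window does by 6 bases. The matches in Xrcc6 and Msh6 lie in exons annotated as untranslated. The log2 fold changes of the 6 genes were -1.14 for Brca2, -0.98 for Mdc1, -0.60 for Bard1, -0.13 for Msh6, -0.086 for Xrcc6 and 0.30 for Chek2, none of them called by limma, so genes with the match were found both among the lower genes and near 0. A second E2F form, TTTGGCGC, was in 0 of the 28 windows (1.22% of tested genes), CCAAT, bound by NF-Y, in 16 (57.1%, against 43.7%), and TTTGAA, an element of late cell cycle genes, in 1 (3.57%, against 14.1%). A match of letters is a description and not evidence of binding.

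Among the end joining genes, Rif1 (Entrez 51869, chromosome 2, 52072815 to 52126769 of mm10), whose protein works with 53BP1 at broken ends and also sets replication timing, had 215 and 157 CPM in the Th9 libraries and 51.7 and 74.3 CPM with TL1A. The lower Th9 library was thus well above the higher one with TL1A. Its log2 fold change was -1.46 ± 0.24 (SE, n = 2 libraries per group, limma adjusted p = 0.0143), and -1.47 by edgeR's quasi-likelihood test (adjusted p = 0.00888). The call was lost without Th9 replicate 1 (-1.28, limma adjusted p = 0.131), without Th9 replicate 2 (-1.63, 0.121) and with no low-count filter (0.0511), and it held without either TL1A library. Its partner gene Trp53bp1, which encodes 53BP1, had 93.0 and 70.1 CPM without and 74.2 and 49.98 CPM with TL1A, so the groups overlapped. Its log2 fold change was -0.31, with a 95% interval from -0.89 to 0.27. Per kilobase of the longest annotated transcript, Rif1 was at 2.62 and 2.53 times the level of Trp53bp1 in the Th9 libraries and at 0.788 and 1.68 times with TL1A, which places both ratios with TL1A below both without. The Trp53bp1 locus overlaps Tubgcp4 and Map1a, and the library kit does not mark strand.

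Xrcc5 (Entrez 22596, chromosome 1, 72307417 to 72394953), which encodes Ku80, had 58.6 and 44.2 CPM in the Th9 libraries and 15.1 and 16.2 CPM with TL1A, from 237, 140, 45 and 50 reads. The libraries with TL1A lay close together and below both Th9 libraries. Its log2 fold change of -1.55 ± 0.33 just missed the threshold in limma (adjusted p = 0.0501) and passed in edgeR's quasi-likelihood test (0.0392) and DESeq2 (0.00861). Leaving out 1 library gave limma adjusted p-values of 0.313 and 0.178 without Th9 replicates 1 and 2, and of 0.0315 and 0.0827 without TL1A replicates 1 and 2. Xrcc6, which encodes Ku70, the other subunit of the Ku ring that slides onto DNA ends, was the most abundant end joining gene per kilobase. It had 99.5 and 106 CPM without and 86.6 and 94.8 CPM with TL1A. On the log2 scale the fold change was -0.086, with a 95% interval from -0.55 to 0.38. The ratio of Xrcc5 to Xrcc6 per kilobase was 0.761 and 0.539 in the Th9 libraries and 0.225 and 0.221 with TL1A, so that both values with TL1A were below both without. This ratio is not independent of the Xrcc5 difference itself. Such ratios also separated the groups for Prkdc to Xrcc6, Palb2 to Brca1, Nbn to Rad50 and Cdkn1a to Mdm2. They overlapped for Bard1 to Brca1, Fancd2 to Fanci, Mre11a to Rad50 and Chek1 to Atr. None of these ratios is independent of the differences of its own genes. How often ratios of other gene pairs separate the groups was not measured. Of all tested genes taken singly, 48.1% did not overlap in deposited CPM. For Xrcc6 the groups did not overlap in deposited CPM and overlapped after TMM scaling, and its locus overlaps Desi1.

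Prkdc, which encodes the catalytic subunit of DNA-PK that Ku recruits, had 41.6 and 30.6 CPM without and 15.4 and 19.1 CPM with TL1A. No library with TL1A reached the Th9 values, but the difference of -0.92 ± 0.36 on the log2 scale did not pass (limma adjusted p = 0.231). For the ligation step, Lig4, the gene of DNA ligase IV, had 19.3 and 6.31 CPM without and 2.01 and 7.79 CPM with TL1A, resting on as few as 6 reads in 1 library. Xrcc4, which encodes the scaffold of that ligase, had 12.1 and 21.2 CPM without and 19.5 and 20.1 CPM with TL1A. Both ligation genes overlapped between the groups. The end joining genes thus ranged from -1.55 to 0.37 in log2 fold change. In deposited CPM 4 of the 7 were lower without overlap, against 29% of all tested genes. Among these 4, Xrcc6 overlapped after TMM scaling, where 23.7% of all tested genes were lower without overlap.

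All 7 homologous recombination genes had log2 fold changes below 0, between -1.41 and -0.60. In 6 of them the groups did not overlap in deposited CPM, where 29% of all tested genes were lower without overlap. Limma, edgeR and DESeq2 each called 0 of the 7. In limma 6 were lower at an unadjusted p under 0.05, against 8.14% of all tested genes. Brca1, whose protein promotes resection of broken ends, had 103 and 96.0 CPM in the Th9 libraries and 44.3 and 74.6 CPM with TL1A (log2 fold change -0.69 ± 0.27 SE, limma adjusted p = 0.232). Without TL1A replicate 1 the Brca1 value was -0.33, and without TL1A replicate 2 it was -1.05. Bard1, the gene of its obligate ring finger partner, was rarer per kilobase (1.29 against 15.2 CPM per kb for Brca1 in the mean of the Th9 libraries), with 7.92 and 6.63 CPM without and 8.06 and 1.95 CPM with TL1A. The groups overlapped for Bard1, and its 95% interval ran from -2.09 to 0.89.

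Palb2, which encodes the bridge between BRCA1 and BRCA2, had 26.2 and 31.9 CPM without and 8.06 and 11.4 CPM with TL1A. This was the lowest of the 7 log2 fold changes, -1.41 ± 0.42, and it did not pass (limma adjusted p = 0.136). Brca2, which encodes a large DNA-binding partner of PALB2, had 51.5 and 31.3 CPM without and 11.1 and 24.7 CPM with TL1A. On the log2 scale the fold change was -1.14 ± 0.42, and it was -0.60 without TL1A replicate 1 and -1.68 without TL1A replicate 2. Both genes were lower in each library with TL1A than in each Th9 library.

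Rad54l, a DNA translocase gene of the strand invasion step and the most abundant of the group per kilobase, had 185 and 108 CPM without and 67.1 and 78.9 CPM with TL1A (log2 fold change -0.86 ± 0.25, limma adjusted p = 0.136). Without Th9 replicate 1, the highest library, its value was -0.52; its locus overlaps Lrrc41. Blm, the gene of the helicase that dissolves joined DNA intermediates, had 119.5 and 97.9 CPM without and 61.4 and 70.8 CPM with TL1A. Exo1, which encodes an exonuclease of end resection and of mismatch repair, had 57.2 and 39.5 CPM without and 13.1 and 31.8 CPM with TL1A. None of these 3 genes overlapped between the groups, and the Exo1 value of -1.09 became -0.48 without TL1A replicate 1.

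Of the 10 break signalling genes, limma and edgeR called 0 and DESeq2 called 1, Topbp1, where it called 0.881% of all tested genes lower. At an unadjusted p under 0.05 in limma 2 of the 10, Topbp1 and Atr, were lower, against 8.14% of all tested genes. Topbp1, which encodes the activator of ATR, was the most abundant of the 10 per kilobase in the mean of the Th9 libraries (65.6 CPM per kb). With TL1A the mean of Rad50 was above it (36.7 against 32.9 CPM per kb). Topbp1 had 438 and 248 CPM in the Th9 libraries and 178 and 165 CPM with TL1A. The difference of -0.84 ± 0.23 on the log2 scale did not pass in limma (adjusted p = 0.117) or edgeR (0.0807) and passed in DESeq2 (0.0236). Without Th9 replicate 1, which was far above the other libraries, the value was -0.48. Atr had 113 and 76.4 CPM without and 48.7 and 67.2 CPM with TL1A, again without overlap (log2 fold change -0.60 ± 0.26, limma adjusted p = 0.276). The Atr value was -0.37 without Th9 replicate 1, -0.38 without TL1A replicate 1 and -0.39 with the trend on transcript length and GC content removed. Chek1, the gene of the kinase below ATR, had 55.4 and 44.8 CPM without and 30.9 and 31.5 CPM with TL1A (log2 fold change -0.57, 95% interval from -1.20 to 0.06).

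Clspn, which encodes the adaptor claspin that links ATR to CHK1, had 40.1 and 13.6 CPM without and 8.39 and 14.0 CPM with TL1A. The overlap was between the replicate 2 libraries of the groups. Mdc1, the gene of the mediator that binds phosphorylated histone H2AX at breaks, had 16.3 and 25.6 CPM without and 12.4 and 6.82 CPM with TL1A. Neither passed, with 95% intervals from -2.10 to 0.18 and from -2.04 to 0.08.

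Atm, the gene of the kinase that responds to double-strand breaks, had 66.8 and 35.4 CPM without and 40.9 and 72.1 CPM with TL1A, so the order of the libraries followed no group. Chek2, the kinase gene below it, had 17.1 and 8.84 CPM without and 11.4 and 18.2 CPM with TL1A. Their 95% intervals ran from -0.51 to 1.004 and from -0.77 to 1.36 on the log2 scale. In the complex that senses ends, Mre11a, the nuclease gene, had 120.0 and 119.7 CPM without and 134 and 109 CPM with TL1A, and Rad50 had 191, 153, 166 and 212 CPM in the same order of libraries. Nbn, which encodes NBS1, had 101 and 48.9 CPM without and 44.0 and 52.3 CPM with TL1A. All 3 genes overlapped between the groups. Their 95% intervals were from -0.35 to 0.55 for Mre11a, from -0.21 to 0.66 for Rad50 and from -1.14 to 0.24 for Nbn.

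Limma, edgeR and DESeq2 each called 0 of the 3 Fanconi genes. In limma 1, Fanca, was lower at an unadjusted p under 0.05, against 8.14% of all tested genes. Fanca, a subunit gene of the core complex that attaches ubiquitin, had 28.2 and 28.4 CPM without and 7.05 and 18.2 CPM with TL1A. The groups did not overlap, its log2 fold change was -1.15 ± 0.47 (limma adjusted p = 0.249), and it was -0.53 without TL1A replicate 1; the locus overlaps Zfp276. Fancd2 and Fanci encode the pair of proteins that receive that ubiquitin. Fancd2 had 64.8 and 54.0 CPM without and 34.6 and 51.9 CPM with TL1A, and Fanci, the most abundant of the 3 per kilobase, 139 and 170.2 CPM without and 134 and 127 CPM with TL1A. Their log2 fold changes were -0.38 and -0.14, with 95% intervals from -1.01 to 0.24 and from -0.59 to 0.31. The Fancd2 value was -0.10 without TL1A replicate 1 and -0.66 without TL1A replicate 2. After TMM scaling Fanci overlapped between the groups, and its locus overlaps Polg.

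The 4 mismatch and base excision genes had the median closest to 0 of the 6 roles, with 0 called by limma, edgeR or DESeq2 and 0 at an unadjusted p under 0.05. Msh6, which encodes a mismatch recognition subunit, had 189 and 287 CPM without and 166 and 239.5 CPM with TL1A, where replicate 2 was above replicate 1 in both groups. In the mean of the Th9 libraries Parp1 was the most abundant of these 4 per kilobase (61.4 against 55.9 CPM per kb for Msh6). With TL1A Msh6 was (47.7 against 44.4 CPM per kb for Parp1). Parp1, the gene of the enzyme that marks strand breaks with poly(ADP-ribose), had 250.4 and 225 CPM without and 156 and 188 CPM with TL1A. Its groups did not overlap, and its log2 fold change of -0.38 had a 95% interval from -0.78 to 0.03. Xrcc1, the scaffold gene of single-strand break repair, had 49.2 and 42.6 CPM without and 53.4 and 47.1 CPM with TL1A, and Ung, the gene of uracil DNA glycosylase, had 5 to 21 reads per library. Ung had a 95% interval from -1.17 to 2.03, too wide at this depth to show a change of moderate size.

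The p53 genes were mixed, with 0 of 3 called by limma or edgeR and 1, Cdkn1a, by DESeq2. Of all tested genes DESeq2 called 1.76% higher. Cdkn1a (Entrez 12575, chromosome 17, 29090979 to 29100722), which encodes the cell cycle inhibitor p21, had 231 and 215 CPM in the Th9 libraries and 341 and 318 CPM with TL1A. Both values with TL1A were above both without. The difference of 0.65 ± 0.17 on the log2 scale did not pass in limma (adjusted p = 0.107) or edgeR's quasi-likelihood test (0.0944) and passed in DESeq2 (0.0365). It stayed between 0.60 and 0.71 whichever library was left out. Mdm2, which encodes the ubiquitin ligase of p53 and is another of its targets, had 150.4 and 114 CPM without and 160.4 and 119 CPM with TL1A, an overlap with replicate 1 above replicate 2 in both groups.

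Trp53, the p53 gene itself, had 281 and 290.5 CPM without and 219 and 244 CPM with TL1A. The groups did not overlap, and its log2 fold change was -0.21, with a 95% interval from -0.60 to 0.17. Per kilobase, Cdkn1a stood at 1.29 and 1.17 times the level of Trp53 in the Th9 libraries and at 2.45 and 2.06 times with TL1A. Among 22 tested genes of a further list of p53 targets (23 listed), Plk2 and Fas were called higher by limma and 0 lower. Their list had a median log2 fold change of -0.14. Limma called 0.891% of all tested genes higher and 0.252% lower. Plk2, a polo-like kinase gene, rose from 158 and 196 CPM to 313 and 387 CPM (1.07 ± 0.20, limma adjusted p = 0.0287). Leaving out Th9 replicate 1 (0.112), Th9 replicate 2 (0.0965) or TL1A replicate 2 (0.141) ended that call, as did total count scaling (0.0556) and having no low-count filter (0.0797). Fas, a death receptor gene that is also a target of other pathways, rose from 45.0 and 43.3 CPM to 89.9 and 93.8 CPM (1.13 ± 0.24, limma adjusted p = 0.0440). Its call was lost whichever library was left out (limma adjusted p between 0.0746 and 0.178), with total count scaling (0.0842) and with no low-count filter (0.0818).

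Th9 replicate 1 was above Th9 replicate 2 in 26 of the 34 genes (76.5%), against 56.8% of all tested genes, and TL1A replicate 1 was below TL1A replicate 2 in 24 (70.6%), against 51.6%. Across the fits that left out 1 library, the median log2 fold change of the 34 genes stayed between -0.64 and -0.36. The median of all tested genes stayed between -0.022 and -0.0016 in the same fits. Leaving out 1 library moved the log2 fold change by over 1.5 times in 26 of the 34 genes and in 7 of the 13 with an unadjusted p under 0.05 (Topbp1, Atr, Brca1, Brca2, Rad54l, Exo1 and Fanca), and it changed the sign of none of the 13. Between the libraries numbered 1 alone the median difference of the 34 genes was -0.62 on the log2 scale, and between those numbered 2 it was -0.22, with 26 and 24 genes below 0. Rif1 differed by -1.90 and -1.02 in these comparisons, which have 1 library per group and no test.

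**Figure D3:**
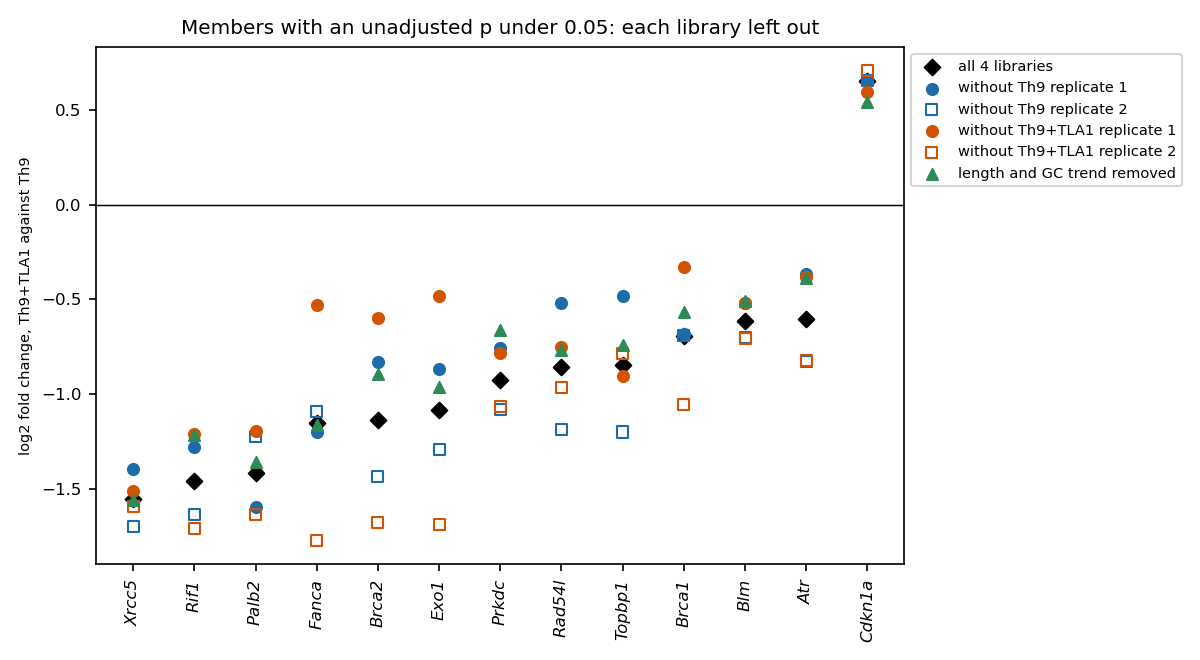
Log2 fold change with TL1A against Th9 of the 13 genes with an unadjusted p under 0.05, with all 4 libraries (black diamonds), with each library left out (blue and orange), and with the trend on transcript length and GC content removed (green triangles). The 12 lower genes stay below 0 and Cdkn1a above 0 throughout, while Brca2, Exo1 and Fanca depend most on which TL1A library is kept.

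Across tested genes the log2 fold change had a Spearman rho of -0.17 with transcript length and 0.15 with GC content, given as descriptions over genes that share the same 4 libraries. The 34 genes have long transcripts, with a median of 4.71 kb against 3.41 kb for all tested genes. With a trend on length and GC content removed from each library, the median of the 34 genes was -0.42 in place of -0.51. In that fit Rif1 was at -1.22 (limma adjusted p = 0.0158) and Xrcc5, a short transcript, at -1.56 (0.0436), so both were called.

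Other genes of the same pathways, taken from lists of 135 genes of which 130 were tested, had a median log2 fold change of -0.28. Of the 130, 20 were lower and 4 higher at an unadjusted p under 0.05, and limma called 2, the p53 targets Plk2 and Fas. Of all tested genes, 8.14% were lower and 8.54% higher at that unadjusted p, and limma called 1.14%. Among 31 other homologous recombination genes 0 were called, 24 were below 0 and the median was -0.56; Brip1, a helicase gene partnered with Brca1, had 63.8 and 49.6 CPM without and 17.5 and 36.7 CPM with TL1A (limma adjusted p = 0.192). Among 16 other break signalling genes 0 were called, with Timeless, a replication fork protector gene, at 151 and 123 CPM without and 74.2 and 80.5 CPM with TL1A (0.129). Among 11 other tested end joining genes 0 were called and the median was 0.0067; Polq, the gene of polymerase theta, which joins ends by short matching stretches, had 40.8 and 27.5 CPM without and 12.8 and 5.84 CPM with TL1A (0.107).

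Of 10 other tested Fanconi genes 0 were called, and Usp1, which encodes the enzyme that removes ubiquitin from FANCD2, had 264 and 217 CPM without and 143 and 147 CPM with TL1A (limma adjusted p = 0.135). Of 6 other mismatch repair genes 0 were called, and the median was -0.51. Of 15 other tested base excision genes 0 were called, and Lig1, a DNA ligase gene also used in replication, had 263 and 216 CPM without and 161 and 164 CPM with TL1A (limma adjusted p = 0.242). In each of the genes named the groups did not overlap, which the choice of the smallest p in each list largely fixed in advance. Lower without overlap in deposited CPM were 17 of 31 homologous recombination, 7 of 16 break signalling and 3 of 11 end joining genes. The same held for 6 of 10 Fanconi, 3 of 6 mismatch repair and 9 of 15 base excision genes. Higher without overlap were 2, 0, 1, 1, 0 and 1 genes of these lists in the same order. Of all tested genes, 29% were lower and 19.1% higher without overlap. At an unadjusted p under 0.05, genes lower with TL1A numbered 6 for homologous recombination, 3 for break signalling and 2 for end joining. They numbered 3 for Fanconi, 3 for mismatch repair and 1 for base excision repair, while 1 Fanconi gene was higher. The shares of all tested genes at that p were 8.14% lower and 8.54% higher. EdgeR and DESeq2 called 0 in each of these 6 lists.

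The 26 genes of a proliferation list summed to 8400 and 7670.3 CPM in the Th9 libraries and to 5119 and 5684 CPM with TL1A, with 25 of 26 below 0 and a median log2 fold change of -0.43. Of these 26, limma called 1 lower and 0 higher, edgeR called 1 and DESeq2 called 4. Of all tested genes, limma called 0.252% lower and 0.891% higher, edgeR 1.56% and DESeq2 2.64%. At an unadjusted p under 0.05 in limma, 14 of the 26 were lower. This was 53.8%, against 35.3% of the 34 repair genes and 8.14% of all tested genes. In deposited CPM 24 of the 26 were lower without overlap (92.3%, against 55.9% of the repair genes and 29% of all tested genes). Mki67, which encodes the marker Ki-67, fell from 721 and 389 CPM to 197 and 249.9 CPM (log2 fold change -1.16 ± 0.25, limma adjusted p = 0.0464). Leaving out Th9 replicate 1 (-0.76, 0.216), Th9 replicate 2 (0.0803) or TL1A replicate 2 (0.0669) ended that call, as did the fit with the length and GC trend removed (0.0524). It also ended with total count scaling (0.0696), a pseudocount of 0.5 CPM (0.0535) and no low-count filter (0.129). Top2a, the gene of topoisomerase II alpha, had 1175 and 1062 CPM without and 733 and 847 CPM with TL1A (-0.41, limma adjusted p = 0.259). The 34 repair genes summed to 3637 and 3047 CPM without and to 2430.0 and 2679 CPM with TL1A. The part of the proliferation genes' difference in that of the repair genes was not tested.

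**Figure D4:**
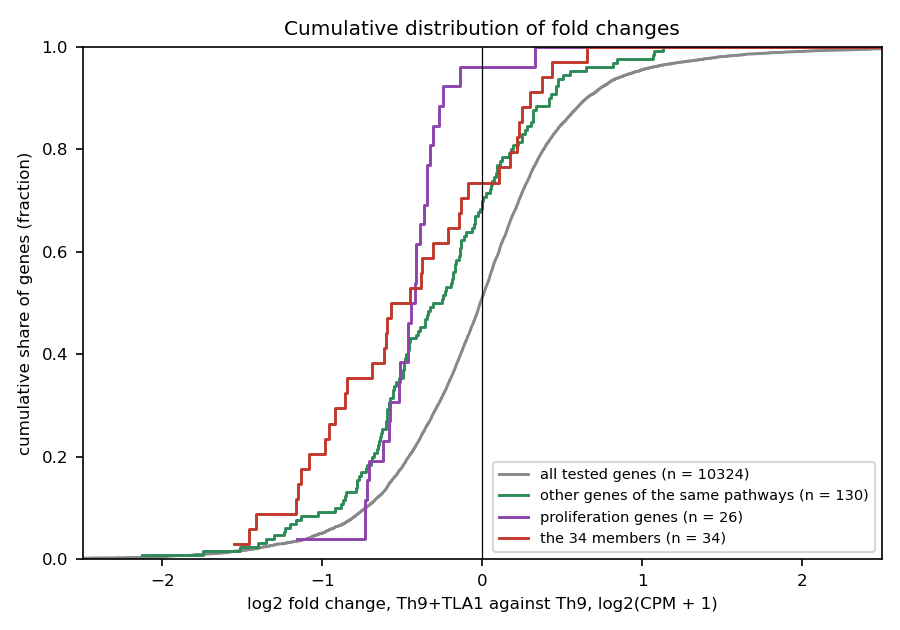
Cumulative share of genes (vertical axis, fraction) at or below each log2 fold change with TL1A against Th9 (horizontal axis) for the 34 repair genes (red), 130 other tested genes of the same pathways (green), 26 proliferation genes (purple) and all 10324 tested genes (grey). The red curve lies left of the grey one, with medians of -0.51 and -0.013, and the purple curve rises steeply around its median of -0.43.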

How the data were processed

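The authors deposited 1 table of CPM per library, a value per gene identifier scaled to the reads in genes. Tools listed in the submitters' processing notes are HTSeq 0.5.4 and edgeR, with build mm10; aligner and annotation: not given in the sources used here. Per the labels' protocols, low-input cDNA was amplified and sequenced on an Ion Torrent instrument. All non-zero values (100%) were whole multiples of 1 read within 0.01 of a read, which gave recovered reads; 3 reads were 0.742 to 1.01 CPM. Amplified reads are not independent molecules. RefSeq GRCm38.p6 named 23383 of 23480 identifiers. FilterByExpr (minimum count 10) kept 10324 genes. CPM were divided by TMM factors (0.964 to 1.06), and log2(CPM + 1) was fitted with limma (eBayes with a trend) on group, with Benjamini-Hochberg adjustment at 0.05; edgeR's quasi-likelihood test on recovered reads, an alternative, called 161 genes and limma 118. Tests ran in DESeq2 1.42.0, edgeR 4.0.16 and limma 3.58.1 under R 4.3.3, and tables and plots in matplotlib 3.10.9, numpy 2.4.6 and pandas 2.3.3 under Python 3.11.15. The scripts were tested on simulated data. Chi-square per degree of freedom between replicates was 12.6 for Th9 and 7.64 with TL1A, beyond sampling noise, so no library was a copy. The members, lists and alternatives were chosen with earlier results of these data known. Genes were named by a rule: values per library for called members, members with an unadjusted p under 0.05 and the most abundant member of each role, with all others also given; for each list up to 3 called genes or the 1 with the smallest p, except that 1 list's gene is not reported here. Length and GC content came from the longest GENCODE M21 transcript, known for 97.4% of tested genes.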

Additional observations from a re-analysis of the deposited data

How the results depend on the processing

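The number of genes called over all tested genes was 118, and it moved to 73 with total count scaling, 33 without a filter on low counts, 273 with DESeq2, and between 19 and 155 when 1 library was left out. The count of members called lower, 1 in the fit described, was 2 with RLE scaling, a pseudocount of 4 CPM, the stricter filter, edgeR's quasi-likelihood test or the length and GC trend removed, 3 with DESeq2, 0 without a filter, and 0 to 2 when 1 library was left out. The count of members called higher was 0 except with DESeq2, where it was 1, and 0 to 0 when 1 library was left out. The median of the members, -0.51, stayed within 1 SD of the spread between libraries except between the libraries numbered 2 alone, where it was -0.22 (an alternative chosen after seeing the data; the cause was not tested). The stricter filter left 31 of the 34 members. Whether replicate numbers pair the libraries is not known. Same-numbered deviations had a correlation of -0.011 over genes, which does not show pairing and, with 2 libraries per group, cannot exclude it. The deposited names of both libraries numbered 2 share a code that those numbered 1 do not, and its meaning is not stated. With the replicate block the counts were 225 genes and 3 members lower (Rif1, Xrcc5 and Topbp1).

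Leaving out 1 library changed the sign of 11 of the 34 members, none of them called: log2 fold changes ran from -0.15 to 0.65 for Atm, -1.42 to 0.22 for Bard1, -0.090 to 0.69 for Chek2, -0.34 to 0.059 for Fanci, -0.049 to 0.39 for Mdm2, -0.050 to 0.25 for Mre11a, -0.48 to 0.22 for Msh6, -0.91 to 0.014 for Nbn, -0.15 to 1.02 for Ung, -0.049 to 0.80 for Xrcc4 and -0.18 to 0.012 for Xrcc6. No alternative that kept all 4 libraries changed the sign of a member. Between the libraries numbered 2 alone, Clspn (13.6 CPM without, 14.0 with TL1A) and Lig4 (6.31 without, 7.79 with), outside these 11, were higher with TL1A. Each fit that left out 1 library had 1 group with a lone library, assumed to vary like those of the other group, and other causes were not tested. With 2 libraries per group, members with few reads (Ung, Bard1 and Lig4) have intervals too wide to show moderate changes.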

Other observations

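Repair pathways outside the 34 genes were also measured. Of 13 nucleotide excision repair genes, which remove bulky lesions such as those of ultraviolet light, 0 were called by limma or edgeR. At an unadjusted p under 0.05, 1 was higher and 1 lower, against 8.54% and 8.14% of all tested genes. Their median log2 fold change was -0.052. Ddb1, which encodes a damage recognition subunit that is also an adaptor of a ubiquitin ligase, had 874 and 1206 CPM in the Th9 libraries and 1546 and 1874 CPM with TL1A, with no overlap (log2 fold change 0.82 ± 0.21 SE, limma adjusted p = 0.100). DESeq2 called Ddb1 (adjusted p = 0.00794) and called 1.76% of all tested genes higher. Of 6 translesion synthesis genes, whose polymerases copy past damaged bases, 0 were called by limma, edgeR or DESeq2. In limma 1 was lower at an unadjusted p under 0.05 and 5 were below 0, against 8.14% and 51.1% of all tested genes. Rev3l, the gene of the catalytic subunit of polymerase zeta, had 49.2 and 38.2 CPM without and 27.9 and 10.4 CPM with TL1A (-1.20 ± 0.44, limma adjusted p = 0.206). Without TL1A replicate 1 its value was -1.88 and it was called (limma adjusted p = 0.00809), with a lone TL1A library of 32 reads that is assumed to vary like the Th9 libraries, and without TL1A replicate 2 it was -0.52.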
